A study of Fragaria x ananassa with 28 samples.

Results

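Transcripts for the making and sensing of ethylene were followed in the receptacle, which makes up the flesh of a strawberry (Fragaria x ananassa), of the octaploid cultivar 'Toyonoka'. They were taken from the table of assembled transcripts by their Swiss-Prot description, which had to name 1-aminocyclopropane-1-carboxylate (ACC), an ethylene receptor, ETHYLENE INSENSITIVE, an EIN3-binding protein or the kinase CTR1. Of 301219 transcripts, 355 matched, in 116 assembly components, and 103 of these, in 75 components, reached 1 RPKM (reads per kilobase of transcript, relative to the library's counted reads) in at least 2 libraries and were tested. The tested transcripts comprised 2 for ACC synthase, 9 for ACC oxidase, 47 for ACC oxidase homologs, 11 for receptors, 9 for CTR1, 7 for the EIN3 family and 18 for EIN3-binding F-box proteins.

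Fruit 2 weeks past flowering received 100 µL of distilled water, of 1 µM abscisic acid (ABA) or of 100 µM nordihydroguaiaretic acid (NDGA), a compound that blocks ABA synthesis according to the labels and that inhibits lipoxygenases in general. Sampling was at days 0, 5 and 8 for water and at days 5 and 8 for each agent. Each of these 7 groups had 2 polyA mRNA libraries of 7356752 to 9035037 counted reads, and RNA of 10 fruits per group was pooled. P-values here measure the spread between 2 libraries, which may be technical, and fewer cells of a type cannot be told apart from less RNA per cell.

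Ethylene is made from S-adenosylmethionine in a pair of steps: ACC synthase forms ACC, usually at the limiting step, and ACC oxidase turns ACC into ethylene. Receptors in the endoplasmic reticulum keep the kinase CTR1 active in the absence of ethylene. When they bind ethylene, CTR1 is released, EIN2 signals to the nucleus, and EIN3 and its relatives, which the F-box proteins EBF1 and EBF2 otherwise mark for degradation, switch on ethylene-responsive transcription factors. Strawberry is known as a non-climacteric fruit, in which ABA rather than a burst of ethylene is regarded as the main ripening hormone.

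The descriptions fitted the roles unevenly when set against the authors' KEGG definitions and Swiss-Prot alignment scores. KEGG named all 11 tested receptor transcripts as ethylene receptors, both ACC synthase transcripts as ACC synthase and 6 of the 9 ACC oxidase transcripts as ACC oxidase. Of the 47 homologs, 39 were defined as another dioxygenase, 2,4-dihydroxy-1,4-benzoxazin-3-one-glucoside dioxygenase, and 1 as ACC oxidase. These homologs are therefore given apart from ACC oxidase. Of the 18 F-box transcripts, 5 were defined as EIN3-binding F-box proteins and 10 as F-box and leucine-rich repeat proteins, and in score component comp119990_c0 (771) and component comp117009_c0 (703) stood above all others, whose scores were at most 90.9. KEGG defined 8 of the 9 CTR1 transcripts as CTR1 and 1 as another protein, U6 snRNA-associated Sm-like protein LSm3. Component comp119233_c0 scored 1111 for CTR1 and no other scored above 397, so the others are given by description only. Of the 7 EIN3-family transcripts, 5 were defined as EIN3 and 2 had no definition, and scores ran from 71.6 to 756.

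Summed over the tested transcripts of a role, levels in single libraries ranged from 9.43 to 56.1 RPKM for ACC oxidase and from 0 to 5.86 RPKM for ACC synthase. The receptors summed to 26.7 to 43.7 RPKM, the EIN3 family to 125 to 169 RPKM and the EIN3-binding F-box transcripts to 123 to 156 RPKM. By mean over the 14 libraries, 26 of the 103 transcripts lay under 1 RPKM, 48 between 1 and 5, 22 between 5 and 20, and 7 at 20 or more. Of the 252 matching transcripts that were not tested, 197 were at 0 in every library, 119 of them described as CTR1. At the limit, the second-highest library of comp138537_c0_seq1 was at 1.05 RPKM and that of comp93641_c0_seq5 at 1.07 RPKM, just inside, while comp98094_c0_seq3 at 0.972 and comp111592_c0_seq5 at 0.969 lay just outside.

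Differences are given on the log2(RPKM + 1) scale, which understates changes of low transcripts, and a transcript was called at a Benjamini-Hochberg adjusted p below 0.05 in limma over all 99136 tested transcripts. In water, 16 of the 103 were called between days 0 and 5, beside 12.9% of all tested transcripts. Of these, 5 were higher (4.98% of all) and 11 lower (7.9% of all). Between days 5 and 8, 7 were called (4.67% of all), all of them higher (2.89% of all higher, 1.78% lower). Between days 0 and 8, 25 were called (10.6% of all), 14 higher (4.87%) and 11 lower (5.68%).

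Against water of the same day, ABA gave 2 calls at day 5 (2.16% of all), 1 higher (1.21%) and 1 lower (0.956%). At day 8 it gave 20 (13.3% of all), 5 higher (4.3%) and 15 lower (8.98%). NDGA gave 4 calls at day 5 (2.03% of all), 2 higher (1.23%) and 2 lower (0.802%). At day 8 it gave 5 (2.18% of all), all of them lower (1.48% of all lower, 0.705% higher). In a test of the difference itself, the ABA effect changed from day 5 to day 8 in 3 of the 103 (3.69% of all), all of them lower at day 8 (2.54% of all lower, 1.15% higher). The NDGA effect changed in 5 (2.65% of all), 1 higher (0.857%) and 4 lower (1.79%). The ABA and NDGA comparisons of a day share the water libraries. A fit of the compared groups alone called 0 to 3 of the 103 in each of these comparisons.

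The median change of the 103 lay close to that of all tested transcripts. It was -0.07 beside -0.03 between days 0 and 5 in water, and 0.08 beside 0.04 between days 5 and 8. At day 8 it was -0.26 with ABA beside -0.20 over all transcripts, so that small decreases with ABA at day 8 are to be read against a general shift of -0.20. With median-of-ratios scaling, which takes up that shift, the ABA calls at day 8 split into 10 higher and 8 lower. Of all 99136 tested transcripts, 6311 were then higher and 5939 lower. With quantile normalization the split was 7 and 10, beside 5533 and 6494 of all. The median change of the 103 with NDGA at day 8 was -0.07. In at least 1 of the 7 comparisons within water or against water, 36 of the 103 were called, beside 25.3% of all tested transcripts. These were both for ACC synthase, 5 of 9 for ACC oxidase, 19 of 47 homologs and 4 of 11 receptors. They also held 2 of 9 for CTR1, 1 of 7 of the EIN3 family and 3 of 18 for EIN3-binding F-box proteins. Both ACC synthase transcripts passed the filter only through the libraries of day 0. Other tested transcripts passed it only through water at day 8, among them the ACC oxidase comp93864_c0_seq1 and the homologs comp88320_c0_seq1 and comp88320_c0_seq3. Calls of such transcripts that involve the group they passed through add no support beyond the reads themselves.

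**Figure D1:**
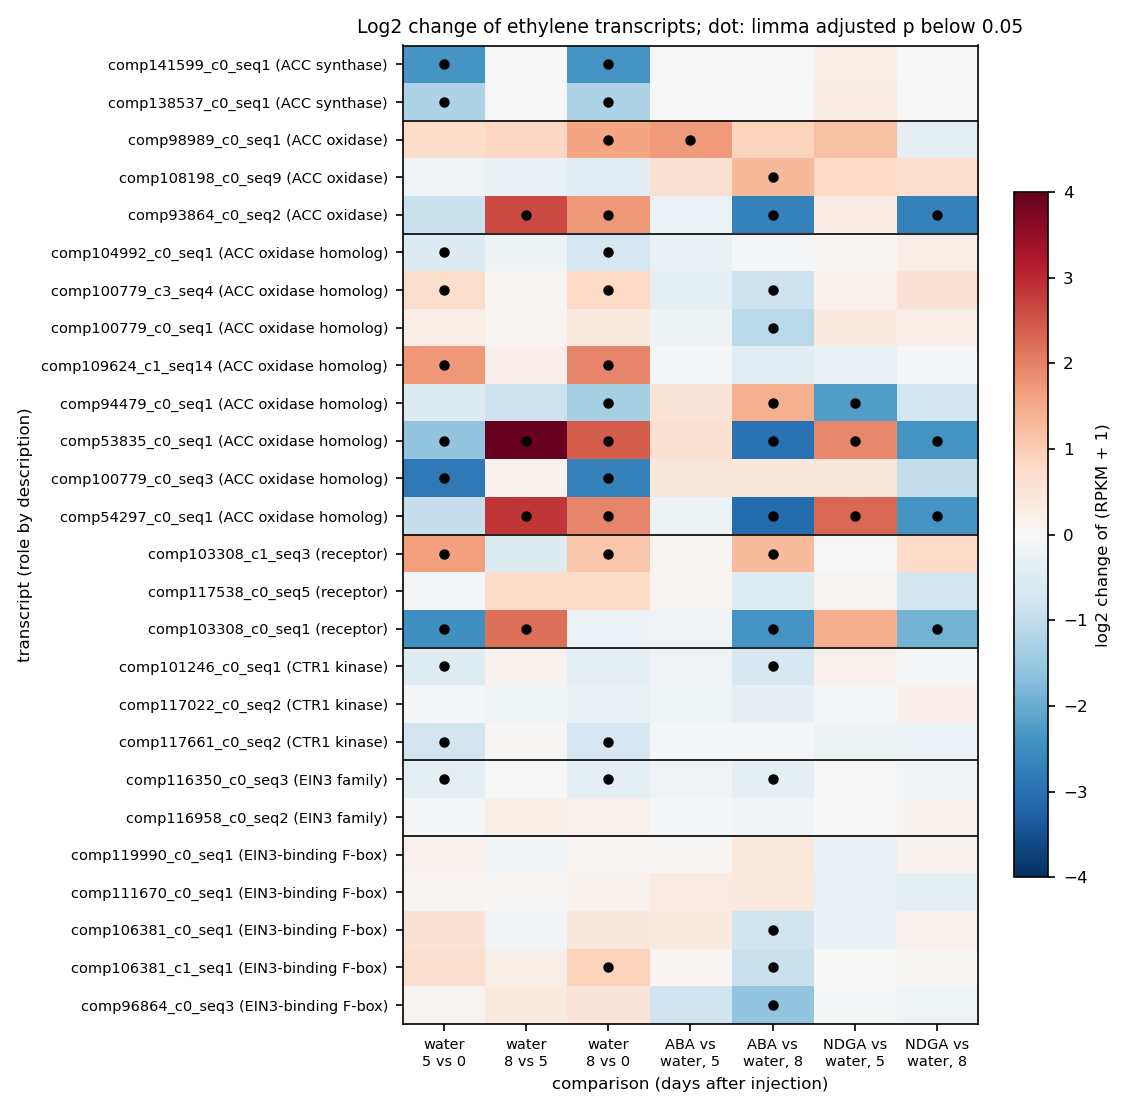
Log2 change of (RPKM + 1), as colour from blue (lower) to red (higher), of the 26 transcripts described by name, sorted by role, in 7 comparisons; a black dot marks a limma adjusted p below 0.05. In the column of ABA against water at day 8, comp54297_c0_seq1 had the lowest value drawn, -3.07, and the EIN3-family and CTR1 transcripts lay close to 0 in most columns.

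The share of transcripts described as markers of other tissues differed between the groups. Transcripts described as seed storage proteins and oleosins (142, of which 69 were tested), markers of the achenes that sit on the receptacle, held a mean of 1.85% of RPKM in water at day 0, 0.467% at day 5 and 0.0208% at day 8. Their share was 0.0134% with ABA and 0.0142% with NDGA at day 5, and 0.00737% and 0.0126% at day 8; in a library, 2 to 40 of the 69 were at 0. Xylem markers (172, of which 78 were tested) held 0.0899% at day 0 and a mean of 0.0277% to 0.0438% in the other groups. Expansin and anthocyanin-pathway transcripts, taken as signs of receptacle ripening, held 0.136%, 0.190% and 0.287% in water at days 0, 5 and 8, 0.252% and 0.197% with ABA at days 5 and 8, and 0.182% and 0.178% with NDGA.

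ACC synthase reads were nearly confined to day 0. Both tested ACC synthase transcripts passed the filter of 1 RPKM in 2 libraries only through the water libraries of day 0. Their calls against day 0 therefore add no support beyond the reads themselves. Of the 21 reads of comp141599_c0_seq1, described as ACC synthase 1, 12 and 8 fell in the water libraries of day 0 and 1 in NDGA at day 5, replicate 2. This gave 4.81 and 3.50 RPKM at day 0, 0.413 RPKM in that NDGA library and 0 in the 11 others. Against a floor of 3 reads over a group, its level at day 0 was at least 6.16-fold higher than at day 5 and at least 6.59-fold higher than at day 8 in water (limma adjusted p = 0.000156 and 0.000159). The ACC synthase 2 transcript comp138537_c0_seq1 had 2 and 3 reads at day 0 and 1 more in the same NDGA library, and its calls against days 5 and 8 (adjusted p = 0.0130 and 0.0150) were lost with voom on reads (0.0874 and 0.0825).

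Both ACC synthase transcripts were short fragments, of 276 and 211 bp with alignment scores of 42.7 and 84.3. The day 0 libraries that held them also held the highest share of achene transcripts, 1.85%, and the part of that tissue in the result was not tested. In ABA at both days and in NDGA at day 8, neither transcript had a read.

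The most abundant ACC oxidase transcript, comp98989_c0_seq1, rose over time in water and was higher still after ABA. Its levels were 9.62 and 3.99 RPKM in water at day 0, 11.2 and 10.98 RPKM at day 5, and 22.2 and 19.2 RPKM at day 8. With ABA they were 44.7 and 33.5 RPKM at day 5 and 42.9 and 36.0 RPKM at day 8. With NDGA they were 26.6 and 25.5 RPKM at day 5 and 13.7 and 18.6 RPKM at day 8. All 4 ABA libraries stood above the other 10, and the NDGA libraries of day 8 lay below those of water at the same day.

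From day 0 to day 8 in water the transcript rose by 1.57 ± 0.28 (SE) on the log2 scale (limma adjusted p = 0.00270), with intermediate values at day 5 that passed against neither end (adjusted p = 0.118 and 0.133). ABA raised it by 1.72 ± 0.28 at day 5 (adjusted p = 0.00519), a call lost when water day 5 replicate 2 was left out (0.056) and when ABA day 5 replicate 1 was (0.0766). At day 8 the ABA difference was 0.89 ± 0.28 (adjusted p = 0.0559), and at day 5 the NDGA difference was 1.16 ± 0.28 (adjusted p = 0.0582). Over the settings other than a left-out library, the adjusted p ran from 0.00184 to 0.111 for the first and from 0.00484 to 0.148 for the second, and both passed with voom on reads and as component sums. The achene share was lower with either agent than with water at day 5, and its part in these differences was not tested.

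Between the agents, comp98989_c0_seq1 was higher with ABA than with NDGA at day 8, by 1.25 ± 0.28 (limma adjusted p = 0.0120). In that comparison 14 of the 103 transcripts were called (4 higher, 10 lower) beside 11% of all (3.95% higher, 7.07% lower). With median-of-ratios scaling the split was 7 and 4, beside 5986 and 3974 of all 99136 tested transcripts. With quantile normalization it was 5 and 6, beside 4968 and 5071 of all. The call of comp98989_c0_seq1 was lost without ABA day 8 replicate 1 (0.0992) or NDGA day 8 replicate 1 (0.115). At day 5 the difference was 0.55 (adjusted p = 0.328), in a comparison with 8 calls among the 103 (3 higher, 5 lower) beside 6.45% of all (3.05% higher, 3.4% lower).

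A second ACC oxidase, comp93864_c0_seq2, described as ACC oxidase 2 of apple, was high in a single group. It stood at 6.78 and 7.57 RPKM in water at day 8 (54 and 61 reads), at 1.66 and 1.29 RPKM at day 0, and at 0.742 and 0 RPKM at day 5. With ABA it was at 0 and 0.269 RPKM at day 5 and 0.387 and 0.129 RPKM at day 8, and with NDGA at 0.852, 0.487, 0.271 and 0.248 RPKM over both days. All 12 other libraries lay below the 2 of water at day 8.

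The rise of comp93864_c0_seq2 in water from day 5 to day 8 was 2.63 ± 0.37 (limma adjusted p = 0.000863) and that from day 0 was 1.73 ± 0.37 (0.00837). Against water at day 8 it was lower with ABA by a log2 change of -2.71 ± 0.37 (0.000272) and with NDGA by -2.70 ± 0.37 (0.00147), calls that share the same 2 water libraries. With a pseudocount of 0.1 the change from day 0 and that with NDGA no longer passed (0.273 and 0.0884). Another assembled form, comp93864_c0_seq1, chosen after its values were seen, had 12 and 10 reads in water at day 8. It had 6 and 2 reads with ABA at day 8, 2 in 1 NDGA library and 0 elsewhere. It passed the filter only through water at day 8.

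Of the 9 tested ACC oxidase transcripts, 2 low ones were called higher with ABA than with water at day 8 (4.3% of all tested transcripts). comp108198_c0_seq9 went from 1.05 and 1.04 RPKM in water to 3.78 and 4.18 RPKM with ABA, a change of 1.28 ± 0.39 (limma adjusted p = 0.0485) that was lost under several settings (0.0533 as a component sum, 0.153 without water day 8 replicate 1). comp95248_c0_seq2, chosen after its values were seen and with an alignment score of only 100, went from 0.456 and 0.720 RPKM to 2.81 and 2.99 RPKM, a change of 1.30 ± 0.39 (0.0447). In neither case did the ABA and water libraries of day 8 overlap. With NDGA at day 8 the levels lay between them, at 1.91 and 2.66 RPKM for the first and 1.57 and 1.80 RPKM for the second, and ABA against NDGA did not pass for either (limma adjusted p = 0.394 and 0.456). In water at day 5 the first was at 2.65 and 0.684 RPKM and the second at 2.24 and 1.90 RPKM.

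**Figure D2:**
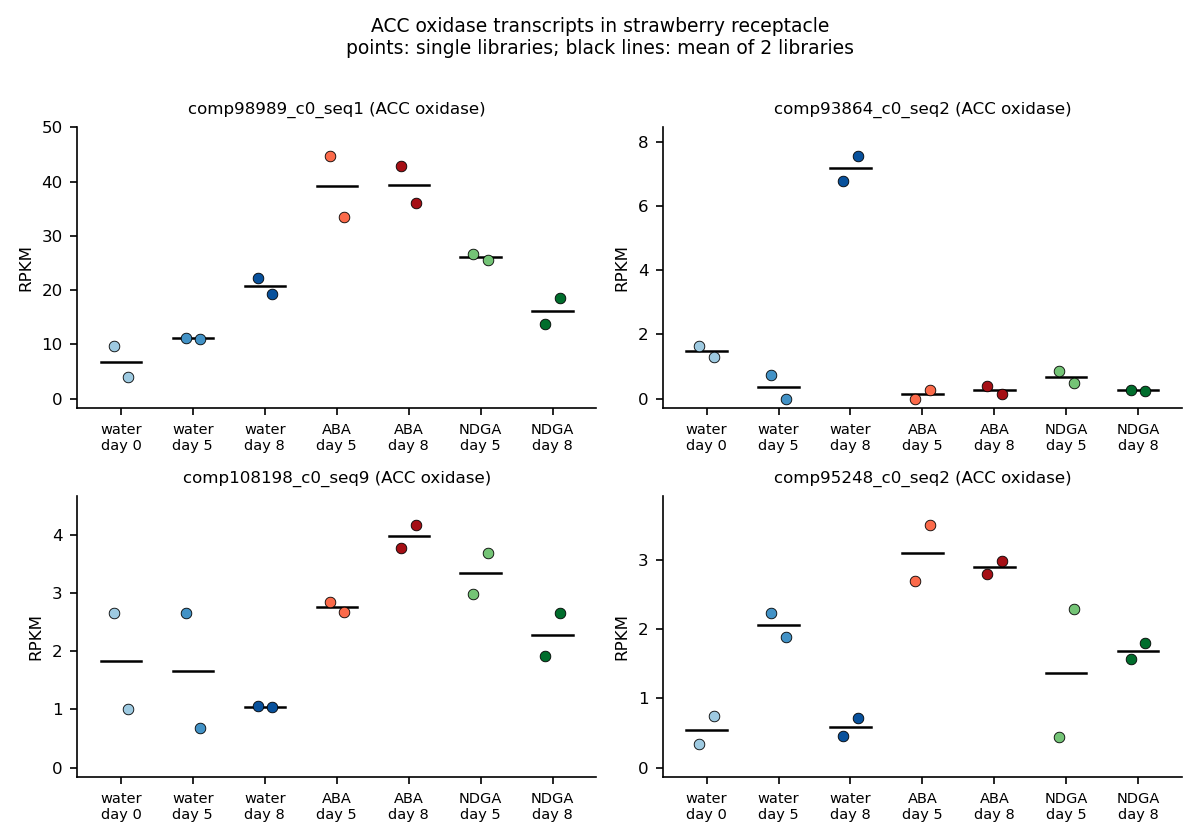
RPKM of 4 ACC oxidase transcripts in each of 14 libraries by group, with points for single libraries and black lines for the mean of 2. comp98989_c0_seq1 is highest in the 4 ABA libraries (33.5 to 44.7 RPKM), whereas comp93864_c0_seq2 is high in the 2 water libraries of day 8 alone (6.78 and 7.57 RPKM).

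The ACC oxidase homologs form a branch of the same dioxygenase superfamily for which formation of ethylene is not established. Of the 47 tested, 8 rose (4.87% of all tested transcripts) and 7 fell (5.68% of all) in water from day 0 to day 8. With ABA at day 8, 2 were higher (4.3% of all) and 8 lower (8.98% of all) than water. The split was 2 and 6 with median-of-ratios scaling (6311 and 5939 of all) and with quantile normalization (5533 and 6494 of all). The most abundant, comp104992_c0_seq1, fell from 48.8 and 45.2 RPKM at day 0 to 27.1 and 30.2 RPKM at day 8 in water (-0.70 ± 0.14, limma adjusted p = 0.00503; 0.0521 without water day 8 replicate 1). comp109624_c1_seq14 rose from 3.03 and 2.26 RPKM at day 0 to 10.9 and 11.4 RPKM at day 5 and 14.7 and 11.4 RPKM at day 8. Its change over 8 days was 1.94 ± 0.22 (6.04e-05).

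Of the 8 tested forms of components comp100779_c0 and comp100779_c3, 2 were called lower with ABA than with water at day 8 (8.98% of all tested transcripts). The other 6 did not pass, at log2 changes of -0.30 to 0.45. Form comp100779_c3_seq4 stood at 12.1 RPKM in both libraries of day 0, at 20.0 to 22.3 RPKM in water at days 5 and 8, at 11.8 and 11.6 RPKM with ABA at day 8 and at 32.8 and 33.0 RPKM with NDGA at day 8. The ABA libraries lay below and the NDGA libraries above those of water at day 8. The ABA difference from water was -0.84 ± 0.14 (limma adjusted p = 0.00146) and that from NDGA -1.41 ± 0.14 (1.96e-05). Form comp100779_c0_seq1 fell likewise, from 21.1 and 20.8 RPKM to 9.13 and 9.50 RPKM (-1.09 ± 0.18, 0.00119). The short form comp100779_c0_seq3 went from 9.11 and 14.8 RPKM at day 0 to under 2 RPKM in water at both later days. Component comp100779_c0 as a whole did not show this change (-0.07, limma adjusted p = 0.84, from day 0 to day 8).

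The homolog comp94479_c0_seq1 was lower than water with NDGA at day 5 and higher than water with ABA at day 8. It fell in water from 13.3 and 11.4 RPKM at day 0 to 5.50 and 3.30 RPKM at day 8, by way of 8.88 and 7.82 RPKM at day 5. With ABA it stayed at 12.0 to 14.0 RPKM, and with NDGA it stood at 1.05 and 0.963 RPKM at day 5 and 2.14 and 2.23 RPKM at day 8. No NDGA library reached the lowest of any other group. NDGA lowered it at day 5 by a log2 change of -2.22 ± 0.24 (limma adjusted p = 0.000159) and ABA raised it at day 8 by 1.42 ± 0.24 (0.00143). The ABA difference at day 5, 0.50 (adjusted p = 0.422), and the NDGA difference at day 8, -0.73 (0.170), did not pass, so that at neither day were both agents called against water. Between the agents it differed by 2.72 ± 0.24 at day 5 (1e-05) and 2.15 ± 0.24 at day 8 (5.04e-05).

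A pair of short homolog fragments peaked, like comp93864_c0_seq2, in water at day 8. comp53835_c0_seq1, of 233 bp, stood at 17.7 and 13.0 RPKM there (35 and 26 reads), at 0 in water at day 5 and at most at 3.91 RPKM in any other library. comp54297_c0_seq1, of 425 bp, stood at 7.19 and 7.65 RPKM (26 and 28 reads), at 4.29 and 5.10 RPKM with NDGA at day 5, at 0 in all 4 ABA libraries and at most at 1.64 RPKM elsewhere. Against the floor of 3 reads per group, the first was at least 19.0-fold higher in water at day 8 than at day 5 (adjusted p = 7.79e-05), and the second at least 17.4-fold lower with ABA than with water at day 8 (0.000351). The first was also lower with ABA at day 8, by a log2 change of -2.99 ± 0.42 (0.000357). Both were lower with NDGA at day 8 (-2.41 ± 0.42 and -2.37 ± 0.43, limma adjusted p = 0.00842 and 0.0109). At day 5 both were called higher with NDGA than with water (1.23% of all tested transcripts). The log2 changes there were 1.93 ± 0.42 and 2.31 ± 0.43 (limma adjusted p = 0.0328 and 0.0127), from 12 reads against 0 and 35 against 1.

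**Figure D3:**
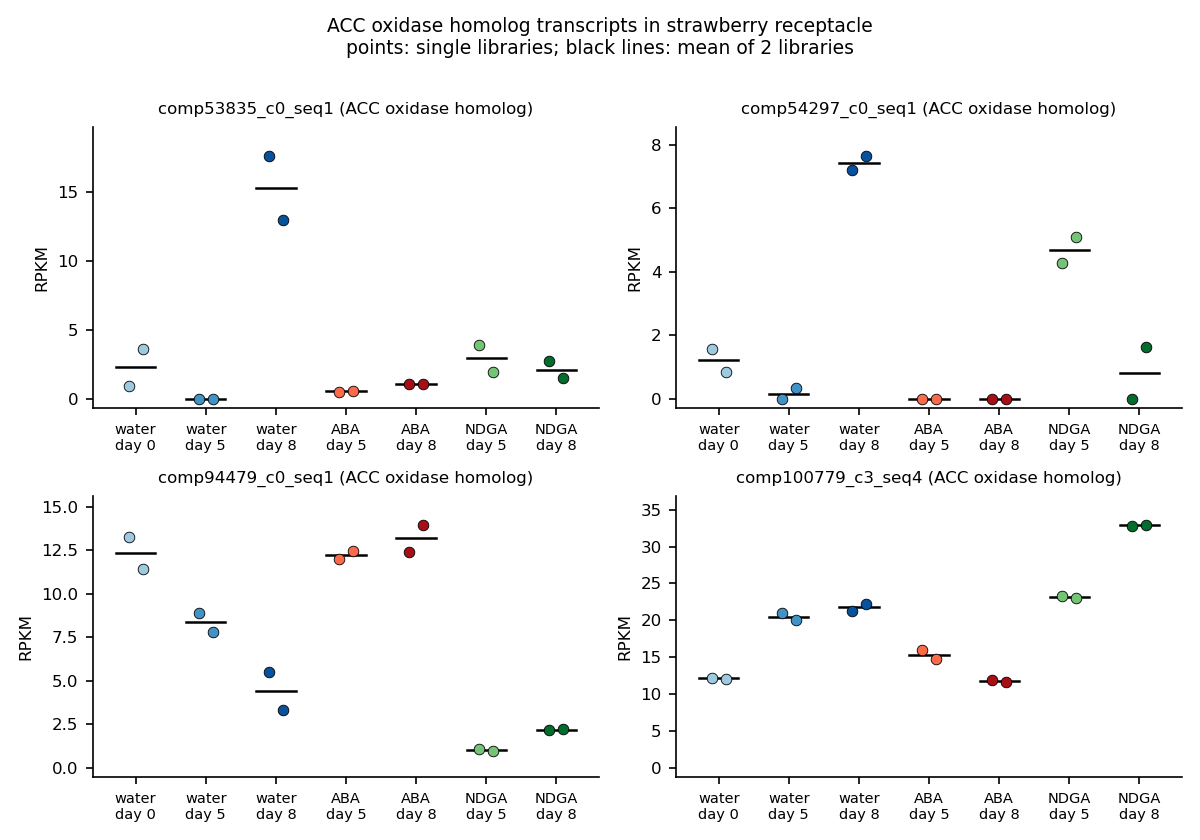
RPKM of 4 ACC oxidase homologs in each of 14 libraries by group, with points for single libraries and black lines for the mean of 2. comp94479_c0_seq1 is lowest in the 4 NDGA libraries (0.963 to 2.23 RPKM), and comp53835_c0_seq1 is high in water at day 8 (13.0 and 17.7 RPKM).

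Receptors repress the response until they bind ethylene. The 11 receptor transcripts came from components comp117538_c0, comp103308_c0 and comp103308_c1, which matched receptor ETR1 of peach, and comp114378_c0 and comp115462_c0, which matched ETR2 of Arabidopsis. Forms of components comp103308_c0 and comp103308_c1 were fragments of 234 to 760 bp. In water, 2 receptors rose (4.98% of all tested transcripts) and 2 fell (7.9% of all) from day 0 to day 5. All 4 were forms of comp103308_c0 or comp103308_c1. With quantile normalization 2 rose and 1 fell, beside 5644 and 6587 of all.

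The most abundant receptor form, comp103308_c1_seq3, rose early. It stood at 3.20 and 1.75 RPKM at day 0, at 9.89 and 9.48 RPKM at day 5 and at 6.65 and 5.96 RPKM at day 8 in water. With ABA it was at 7.78 and 14.3 RPKM at day 5 and 16.2 and 16.7 RPKM at day 8, and with NDGA at 9.89, 9.76, 8.17 and 15.4 RPKM over both days. Every later library lay above both of day 0. The rise to day 5 in water was 1.65 ± 0.31 (limma adjusted p = 0.00338; 0.0526 without water day 0 replicate 2).

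ABA at day 8 was above water by 1.26 ± 0.31 in this form (limma adjusted p = 0.0178). That call was lost without any 1 of the 4 libraries compared (0.0684 to 0.0992), and the sum over the forms of the component differed by 0.67 (0.201). A second form of the same component, comp103308_c1_seq2, chosen after its values were seen, was called lower with ABA at day 5. It stood at 4.12 and 5.59 RPKM in water and at 0.318 and 0.690 RPKM with ABA at day 5 (-1.96 ± 0.43, 0.0326; 0.0718 with voom on reads), and at 4.35 and 3.34 RPKM and at 0.992 and 0.991 RPKM at day 8 (-1.27 ± 0.43, 0.0728). It stood at 0.607 and 0 RPKM at day 0, so that the ABA libraries lay near the level of day 0. With NDGA it was at 3.12 and 6.56 RPKM at day 5 and at 3.64 and 9.71 RPKM at day 8, above ABA at both days (ABA against NDGA -1.90 ± 0.43 and -1.82 ± 0.43, limma adjusted p = 0.0178 and 0.0150). The differences of the 2 forms from water at day 8 had opposite signs, and reads shared between forms make the split between them uncertain.

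The receptor fragment comp103308_c0_seq1 was present in water at days 0 and 8 and had no read after ABA. Its levels were 7.31 and 3.36 RPKM at day 0, 0.201 and 0 RPKM at day 5, and 3.27 and 5.05 RPKM at day 8 in water. It was at 1.98 RPKM in both NDGA libraries of day 5 and at 0.881 and 0 RPKM at day 8. At day 8 it was at least 13.2-fold lower with ABA than with water (limma adjusted p = 0.00209), from 41 reads against 0. The NDGA difference from water at day 8 (-1.89 ± 0.42, 0.0335) did not pass as a component sum (0.0551) or without 1 of several libraries (up to 0.249).

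The best-scoring match to ETR1, comp117538_c0_seq5 (alignment score 983), changed less. It stood at 5.65 and 5.80 RPKM at day 0 and at 9.96 and 10.4 RPKM at day 8 in water, and at 4.03 to 7.44 RPKM in the 10 other libraries. It passed in none of the comparisons. Summed over its forms, component comp117538_c0 rose by 0.73 from day 0 to day 8 (limma adjusted p = 0.00239). The ETR2-like transcripts comp114378_c0_seq1 and comp115462_c0_seq4 ranged over 1.06 to 5.31 and 1.48 to 4.23 RPKM and were not called.

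**Figure D4:**
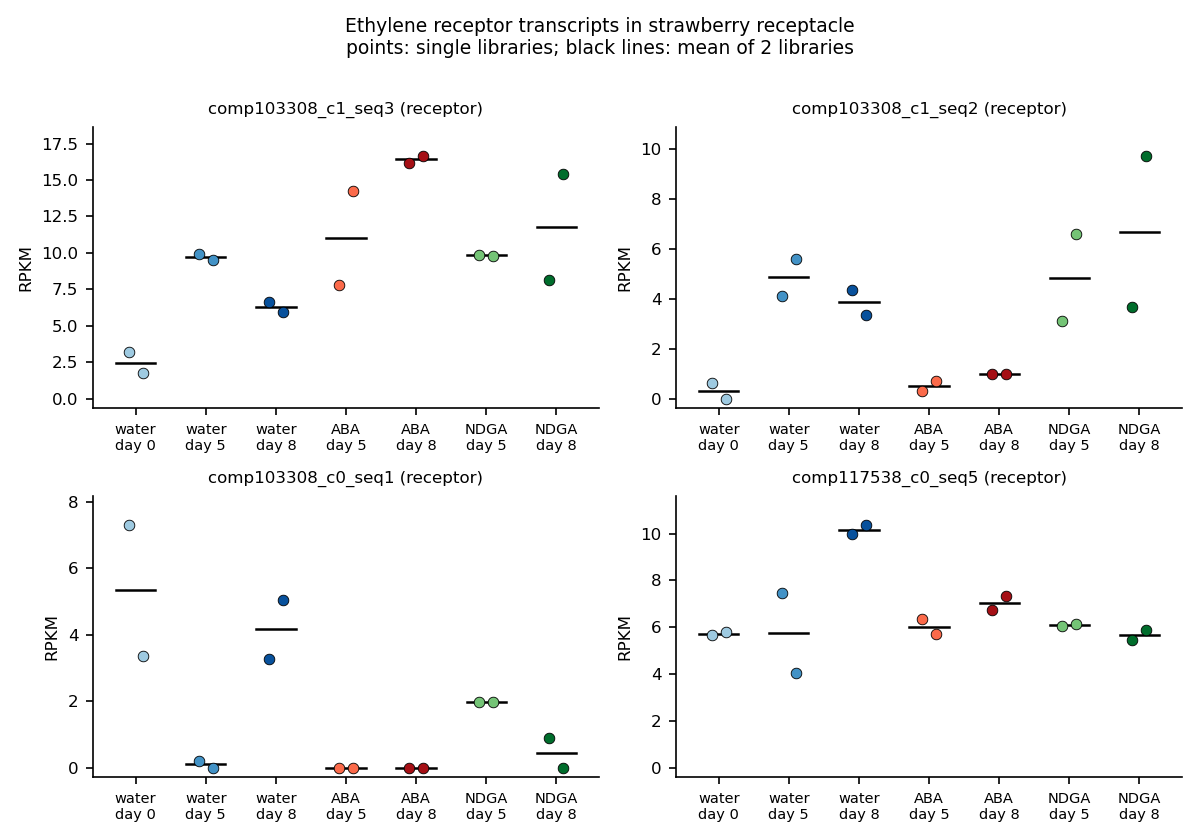
RPKM of 4 ethylene receptor transcripts in each of 14 libraries by group, with points for single libraries and black lines for the mean of 2. comp103308_c1_seq3 is lowest in water at day 0 (1.75 and 3.20 RPKM), and comp103308_c0_seq1 is at 0 in all 4 ABA libraries.

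CTR1 is the kinase that holds the pathway off. The transcripts with the highest CTR1 score, comp119233_c0_seq1 and comp119233_c0_seq2, were at 1.69 to 3.89 and 1.73 to 3.99 RPKM, without a call. Of the lower-scoring CTR1 matches, comp101246_c0_seq1 (score 146) was the most abundant. It stood at 71.8 and 77.2 RPKM at day 0, at 53.1 to 63.1 RPKM in water later, and at 38.8 and 35.8 RPKM with ABA at day 8. Its ABA difference at day 8, -0.63 ± 0.14 (limma adjusted p = 0.0108), was -0.32 (0.197) with median-of-ratios scaling, and its fall from day 0 to day 5 (-0.48 ± 0.14, 0.0431) was lost under several settings (0.0613 when rescaled to a common sum). comp117661_c0_seq2 fell from 20.7 and 22.3 RPKM at day 0 to 12.2 and 12.6 RPKM at day 5 (-0.74 ± 0.17, 0.00906). comp117022_c0_seq2, at 31.8 to 53.1 RPKM, was called only between ABA and NDGA at day 8 (-0.53 ± 0.12, 0.0118; -0.20 and 0.356 with median-of-ratios scaling). There, 1 CTR1 transcript was called higher (3.95% of all) and 2 lower (7.07% of all). The higher one was comp112786_c0_seq13, chosen after its values were seen (0.90 ± 0.23, limma adjusted p = 0.0227). Against water at day 8, ABA gave 0 higher (4.3% of all) and 1 lower (8.98% of all). The split was 2 and 0 with median-of-ratios scaling (6311 and 5939 of all) and 0 and 1 with quantile normalization (5533 and 6494).

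EIN3 is the transcription factor at the head of the response. Its match comp116350_c0_seq3 had the highest mean level of the 103 tested transcripts, 83.6 RPKM over the 14 libraries. It stood at 109 and 115 RPKM at day 0, at 82.3 to 86.9 RPKM in water at days 5 and 8, and at 64.9 and 65.7 RPKM with ABA at day 8. The NDGA libraries, at 75.9 to 87.0 RPKM, overlapped those of water. The fall in water was -0.40 ± 0.10 to either day (limma adjusted p = 0.0144 and 0.0184). The ABA difference at day 8, -0.38 ± 0.10 (0.0210), was -0.07 (0.73) with median-of-ratios scaling and -0.26 (0.0993) with quantile normalization. The next EIN3 transcript, comp116958_c0_seq2, ranged over 24.7 to 36.3 RPKM without a call, as did the 5 others at 1.10 to 15.99 RPKM.

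EBF1 and EBF2 are the F-box proteins that remove EIN3. Of the tested transcripts the one with the highest EBF score, comp119990_c0_seq1, stood at 33.6 to 46.0 RPKM in 12 libraries and at 51.7 and 53.9 RPKM with ABA at day 8, above all others. The difference from water at day 8 was 0.42 ± 0.14 (limma adjusted p = 0.0599), and it passed under each of the 3 other scalings, at 0.44 to 0.72 (0.00506 to 0.0463). The other EBF1-like component, comp117009_c0, held 2 tested forms at 0 to 2.38 RPKM.

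Of the 18 tested F-box transcripts, 3 weaker matches were called lower with ABA than with water at day 8 (8.98% of all tested transcripts). comp106381_c1_seq1 stood at 10.2 and 12.4 RPKM in water and at 4.17 and 7.48 RPKM with ABA (-0.89 ± 0.23, limma adjusted p = 0.0230), after a rise in water from 5.56 and 5.68 RPKM at day 0 (0.89 ± 0.23, 0.0266). comp106381_c0_seq1 went from 11.4 and 15.03 RPKM to 6.38 and 8.02 RPKM (-0.79 ± 0.21, 0.0261), and comp96864_c0_seq3 from 9.82 and 11.6 RPKM to 3.42 and 2.52 RPKM (-1.57 ± 0.41, 0.0229). With median-of-ratios scaling all 3 missed the threshold (0.117, 0.156 and 0.0519), with the same sign. Between ABA and NDGA at day 8, 1 F-box transcript was called higher (3.95% of all) and 4 lower (7.07% of all). The higher one was comp111670_c0_seq1, another weaker match, at 16.8 and 17.8 RPKM against 10.7 and 8.91 RPKM (0.76 ± 0.19, limma adjusted p = 0.0171). The lower ones were the 3 above and comp104264_c0_seq6. The split was 2 and 0 with median-of-ratios scaling (5986 and 3974 of all) and 1 and 1 with quantile normalization (4968 and 5071 of all).

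**Figure D5:**
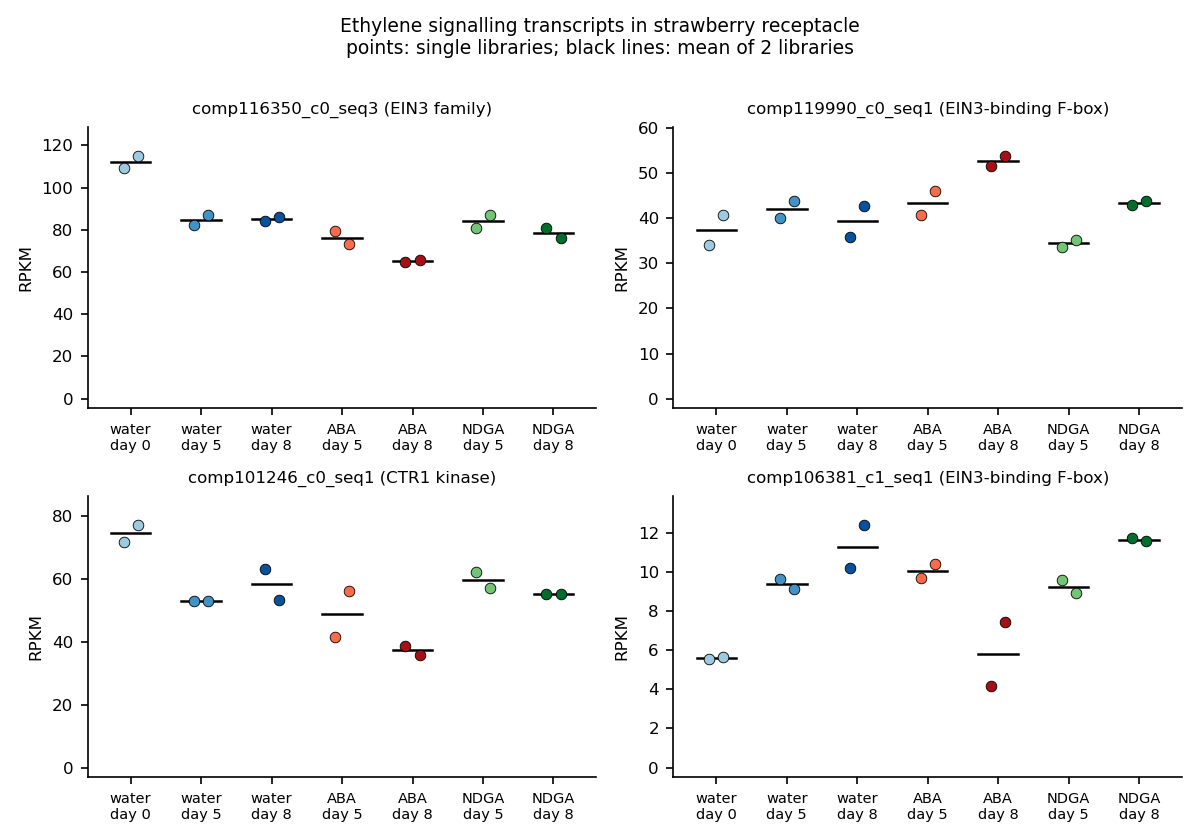
RPKM of 4 transcripts of the signalling steps in each of 14 libraries by group, with points for single libraries and black lines for the mean of 2. The EIN3 transcript comp116350_c0_seq3 is highest at day 0 (109 and 115 RPKM) and the EBF1-like comp119990_c0_seq1 highest with ABA at day 8 (51.7 and 53.9 RPKM); the sign of the ABA differences at day 8 was the same under every scaling tried.

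Of other genes of the pathway, taken by description, 195 were tested. They comprised 127 described as ethylene-responsive transcription factors (ERFs), 20 for S-adenosylmethionine synthases and 17 for methionine salvage. The others were 16 for the copper transporter RAN1, 7 for the ETO1 family, 5 for EIN2 and 3 for RTE1. The ERF description also takes in AP2-like factors such as AIL1, so ERF counts here are counts by description, not of ethylene targets. In water from day 0 to day 8, 16 rose (4.87% of all tested transcripts) and 36 fell (5.68% of all), among them 9 ERFs that rose and 26 that fell, and 5 and 9 S-adenosylmethionine synthases. With ABA at day 8, 7 were higher (4.3% of all) and 21 lower (8.98% of all) than water, and 7 and 9 of them were ERFs. The split was 14 and 14 with median-of-ratios scaling (6311 and 5939 of all tested transcripts) and 10 and 18 with quantile normalization (5533 and 6494 of all). At day 5, 1 was higher (1.21% of all) and 2 lower (0.956%) with ABA, and 6 were higher (1.23%) and 1 lower (0.802%) with NDGA. At day 8, NDGA gave 2 higher (0.705%) and 2 lower (1.48%).

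Alignment scores and KEGG definitions were not examined for the other pathway genes, which are given by description only. The RAN1-described comp119167_c0_seq1 had the smallest adjusted p of these genes with ABA at day 8. RAN1 delivers copper, which receptors need to bind ethylene, in Arabidopsis. It stood at 156 and 148 RPKM at day 0, 47.7 and 48.9 RPKM at day 5 and 121.9 and 122.2 RPKM at day 8 in water. With ABA it was at 45.7 and 42.5 RPKM at day 5 and at 19.8 and 23.1 RPKM at day 8, and with NDGA at 62.1, 62.4, 66.5 and 56.6 RPKM over both days. The ABA difference at day 8 was -2.46 ± 0.12 (limma adjusted p = 1.23e-08). Of the 16 RAN1-described transcripts it was the only one called there, beside 13.3% of all tested transcripts.

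ETO1 marks ACC synthase for degradation in Arabidopsis. Its match comp117378_c0_seq1 stood at 10.4 and 11.8 RPKM in water at day 8, at 2.58 and 2.04 RPKM with ABA and at 11.2 and 10.9 RPKM with NDGA (ABA against water -1.87 ± 0.19, limma adjusted p = 1.92e-05). S-adenosylmethionine synthase makes the substrate of ACC synthase. Its transcript comp99435_c0_seq1 stood at 755 and 887 RPKM at day 0, at 249 and 264 RPKM in water at day 8 and at 95.1 and 124.7 RPKM with ABA at day 8 (ABA against water -1.23 ± 0.13, 2.96e-05). The ERF RAP2-12 match comp97789_c0_seq1 was higher with ABA at day 8, at 15.3 and 16.1 RPKM against 4.31 and 4.37 RPKM (1.65 ± 0.18, 5.02e-05), although water at day 5 held 23.1 and 20.3 RPKM. The match to AIL1, an AP2-like factor (comp88053_c1_seq1), was at 13.1 and 13.2 RPKM at day 0 and at most 0.435 RPKM in any later library, as the achene share also fell, and its part in the result was not tested.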

How the data were processed

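The values of the 14 mRNA libraries are RPKM that the authors deposited for a de novo transcript assembly (the labels name a Trinity sequence file); the aligner and counter: not given in the sources used here. Swiss-Prot alignment scores and the KEGG definitions are also from the deposited table, per the file headers. RPKM times length gave whole reads (within 0.1 read) for 100% of values. Forms of an assembly component can be alleles, subgenome copies or splice forms that share reads, so single forms are uncertain.

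The 99136 transcripts that reached 1 RPKM in 2 or more libraries were fitted with limma 3.58.1 (R 4.3.3) on log2(RPKM + 1) over all 7 groups, with eBayes trend (6.05 prior and 7 residual df) and Benjamini-Hochberg adjustment in each of 11 comparisons. The fit was tested on simulated data. SEs are those of the fit. A fold against a group without reads is a lower bound with 3 reads over that group.

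Members, roles and the other pathway genes were chosen with earlier results of these data known. Named are the 2 most abundant members of each role from different components, and members called against water or an earlier day whose higher group averaged at least 5 RPKM, up to 6 per role. Of the other pathway genes, named ones had the smallest adjusted p of their kind. Alternatives were another pseudocount (0.1), no filter, a minimum of 5 RPKM, 3 other scalings, the replicate number as a block, the compared groups alone, voom on recovered reads, sums per component, and each library left out. Per the labels' protocols 7 mRNA libraries were sequenced, but 14 columns are given. The small RNA values were not analysed here beyond the list of predicted targets. The transcript sequences were not analysed here.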

Additional observations from a re-analysis of the deposited data

Results flagged for a closer look

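For 5 of the named transcripts the effect of an agent differed between days 5 and 8 in a test of the difference itself (limma interaction over all 99136 transcripts). Each difference rests on both water groups as well as on the treated ones, and among the 103 transcripts 3 were called for ABA (3.69% of all tested) and 5 for NDGA (2.65%). The ACC oxidase comp93864_c0_seq2 had an ABA effect of -0.23 at day 5 and -2.71 at day 8, a difference of -2.48 (adjusted p = 0.0186), and an NDGA effect of 0.33 and -2.70, a difference of -3.03 (0.00617). The ABA call was lost with voom on reads (-3.88, 0.147) and with a pseudocount of 0.1 (-3.85, 0.235), and the NDGA call with that pseudocount (0.0945).

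The homolog comp53835_c0_seq1 had ABA effects of 0.60 and -2.99, a difference of -3.59 (limma adjusted p = 0.00401), and NDGA effects of 1.93 and -2.41, a difference of -4.34 (0.00121). The homolog comp54297_c0_seq1 had ABA effects of -0.20 and -3.07, a difference of -2.87 (0.0198; 0.151 with a pseudocount of 0.1), and NDGA effects of 2.31 and -2.37, a difference of -4.68 (0.000813). The receptor fragment comp103308_c0_seq1 had NDGA effects of 1.44 and -1.89, a difference of -3.33 (0.00741). In water these 4 transcripts stood at 0 to 0.742 RPKM at day 5 and at 3.27 to 17.7 RPKM at day 8. The achene share was 0.467% in water at day 5 and 0.0208% at day 8, and its part in the result was not tested.

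The homolog comp94479_c0_seq1 had NDGA effects of -2.22 at day 5 and -0.73 at day 8, a difference of 1.49 (limma adjusted p = 0.0349; 0.0606 with voom on reads). NDGA levels were lower than water at both days (0.963 to 2.23 RPKM against 3.30 to 8.88 RPKM).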

How the results depend on the processing

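Of 75 calls among the named transcripts, 44 held under every setting other than a fit of the compared groups alone and a left-out library, 34 held without any single library and 10 held with the compared groups alone. In that fit the calls among the 103 numbered 0 for each pair of days in water, for ABA at day 5, for NDGA at days 5 and 8 and for ABA against NDGA at day 5, and 3 for ABA at day 8, ABA against NDGA at day 8 and the change of the NDGA effect. A pseudocount of 0.1 left 1 call for NDGA at day 8. For ABA at day 5, 1 call was made without a filter, with voom on reads (where that of comp103308_c1_seq2 was lost) and with component sums. The change of the ABA effect gave 8 calls with a minimum of 5 RPKM, 6 with voom and 6 with component sums. With component sums, each of the 103 transcripts took the result of its component, of which there were 75. A called component thus counted once for each of its tested forms, so these are not counts of components. Counted in this way, component sums gave 16 calls between days 5 and 8 in water and 34 for ABA at day 8. Component sums also gave 8 for NDGA at day 8 and 13 for ABA against NDGA at day 5. They turned comp100779_c0_seq3 from 0.45 to -0.81 for ABA against water and from 1.40 to -1.06 for ABA against NDGA at day 8, since other forms of that component held most of its reads. Leaving out 1 library gave 7 to 16, 13 to 27 and 4 to 8 calls in water (days 5 against 0, 8 against 0, 8 against 5), 0 to 2 and 10 to 21 for ABA at days 5 and 8, and 1 to 5 and 1 to 6 for NDGA. It gave 3 to 10 and 3 to 16 for ABA against NDGA, and 1 to 3 and 4 to 6 for the changes of the ABA and NDGA effects. The cause of these losses was not tested.

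No pairing of the samples by replicate number is stated. Over 21 pairs of groups, deviations of same-numbered libraries correlated weakly and always positively, at 0.0503 to 0.101 (median 0.0652), 1 of them over 0.1. With the replicate block, 22 transcripts were called for ABA at day 8, 27 from day 0 to day 8 and 16 from day 0 to day 5 in water. Without it these were 20, 25 and 16. Low transcripts rest on few reads, and 2 libraries per group limit every test.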

Other observations

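The authors' deposited table of predicted microRNA targets listed 29 of the matching transcripts, and none of the 103 tested ones: 26 described as CTR1 for novel_mir_114 and 3 ACC oxidase homologs for miR952b. The authors' deposited lists of transcripts in 9 numbered clusters held 11 of the tested transcripts, 4 of ACC oxidase, 5 homologs and 2 receptor forms. The share of all tested transcripts in these lists was not counted here, so whether 11 is many or few is not known. They put comp98989_c0_seq1 in cluster 8 and comp93864_c0_seq2 in cluster 9, while comp53835_c0_seq1 and comp54297_c0_seq1 shared cluster 4 and comp108198_c0_seq9, comp50742_c0_seq2 and comp94479_c0_seq1 shared cluster 1.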
